A study of Mus musculus with 14 samples.

Results

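Smooth muscle contractile genes were followed through the cell types of the mouse brain in *Cdh5CreER;Tgfbr1 CKO/-* (CKO) and control snRNAseq libraries. The 10 genes, *Acta2*, *Myh11*, *Tagln*, *Cnn1*, *Myl9*, *Mylk*, *Lmod1*, *Actg2*, *Des* and *Synpo2*, were chosen by name among the 26528 genes of the brain count matrix. Unique molecular identifiers (UMIs, which count PCR copies of a captured transcript once) of each gene were added up within a cell type label and a library. Levels are given as CPM, the UMIs of the gene scaled to the total UMIs of those nuclei, beside the share of nuclei with a UMI. The main labels are vascular smooth muscle cells (vSMCs), pericytes, endothelial cells (ECs) and nuclei labeled glia.

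The CKO mice carry a floxed and a null allele of *Tgfbr1*, a type I receptor for TGF-beta ligands, and an inducible Cre under the *Cdh5* (VE-cadherin) promoter, written VEcadCreER in the labels. Cre was activated with 4-hydroxytamoxifen (4HT) between P3 and P5. The driver is active in ECs, so vSMCs, pericytes and glia were not themselves targeted by Cre. The null allele of the CKO mice is not confined to ECs. The other brain library is labeled wild type, which the study uses for controls of normal phenotype. Its retina controls typically carried Cre and a floxed beside an intact allele. Whether the brain controls did, and whether they received 4HT, is not stated. The mouse age was P14 in the study's methods, whereas the labels spoke of young adults. Vascular fragments from a pair of brains were pooled for each library, and there is 1 library per genotype. Every difference below is therefore between 2 libraries, has no replicate check and was not tested. All intervals are 95% intervals that cover counting error only, by the exact Poisson method for CPM, the exact binomial method for shares and the exact conditional binomial method for ratios.

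Contraction of smooth muscle depends on thin filaments of smooth muscle actin that slide along filaments of smooth muscle myosin. Calcium and calmodulin switch on myosin light chain kinase, which phosphorylates the regulatory light chain of myosin, and actin-binding proteins and desmin filaments tune and anchor the system. In the brain these genes are best known from the arterial and arteriolar vSMCs that set vessel diameter.

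In total 49798325 UMIs from 16649 control nuclei and 31033373 UMIs from 14675 CKO nuclei entered, and the median nucleus had 1541 and 1395 of them. The libraries shared 2 barcode sequences among 31324 nuclei. vSMCs numbered 449 in control and 103 in CKO brain, with a median of 1516 and 1103 UMIs per nucleus. Nuclei labeled pericytes numbered 201 and 22, with a median of 502 and 403 UMIs. ECs numbered 2475 and 2944, with a median of 1347 and 1491 UMIs, and nuclei labeled glia 1227 and 419, with a median of 879 and 582 UMIs. *Tgfbr1* itself was at 69.1 CPM in control ECs (62.5 to 76.2) and 62.9 CPM in CKO ECs (57.1 to 69.1). Those intervals overlapped, and a count over the whole gene does not tell floxed from recombined transcripts, so it does not check the labels.

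Marker genes bear on what each label holds. In vSMCs, all 10 of 10 vSMC markers outside the set of 10 genes had UMIs in both libraries, and their sum was 857 CPM in control and 650 CPM in CKO nuclei, with *Mcam* the most abundant. Of these markers *Casq2*, *Pln*, *Kcnmb1*, *Itga8* and *Pdlim3* are also among the further contractile genes described below. The same nuclei also carried 4934 and 5291 CPM of 9 EC markers, led by *Flt1*, and 6432 and 6058 CPM of 10 pericyte markers, led by *Rgs5*. Fibroblast markers, led by *Col1a2*, were at 2453 CPM in control and 4533 CPM in CKO vSMCs, with all 9 detected in both. Neuronal markers, led by *Syt1*, were at 1006 and 612 CPM in vSMCs and astrocyte markers, led by *Slc1a2*, at 524 and 770 CPM. Nuclei labeled pericytes held pericyte markers at 28052 and 15087 CPM, led by *Atp13a5*, with *Higd1b* and *Ndufa4l2* at 0 in the CKO library. ECs held EC markers at 12168 and 10464 CPM, but also pericyte markers at 8461 and 7157 CPM. In vSMCs the sums of pericyte, EC and fibroblast markers exceeded that of vSMC markers, which was highest in control pericytes, at 1699 CPM. The lists hold different genes, so their sums do not give the make-up of a label. *Rgs5* alone was at 4684 and 4660 CPM in control and CKO vSMCs. The vSMC list leaves out the 10 contractile genes, which summed to 6437 and 5725 CPM in the same nuclei. In nuclei labeled glia 9 fibroblast markers reached 6297 and 5281 CPM, above 6 astrocyte markers at 2059 and 1863 CPM and 5 oligodendrocyte markers at 162 and 359 CPM. For comparison, the neuronal cluster Glut_0 is given below. It is among the lowest in these genes and sets no upper limit for neurons, since *Acta2* was at 10.5 CPM in control Glut_21 (5.42 to 18.3), from 12 UMIs in 3 nuclei, and at 6.27 CPM in control Glut_5 (3.01 to 11.5), from 10 UMIs in 3 nuclei. In the 2112 control and 3102 CKO nuclei of Glut_0, with medians of 5004 and 2314 UMIs, 8 of the 10 genes had no UMI. There 3 nuclei would be a share of 0.142% and 0.0967%, and the exact binomial upper limits were 0.175% and 0.119%.

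Of the labels compared, vSMCs carried the highest summed level. The 10 genes together were at 6437 CPM in control vSMCs (6311 to 6565) and 5725 CPM in CKO vSMCs (5437 to 6024). The CKO value was the lower of the pair and the intervals did not overlap, with a ratio of 0.889 (0.842 to 0.939). The sign was not kept in every alternative. The log2 ratio of -0.17 became 0.16 without nuclei with fibroblast markers, a filter on raw counts that also selects by depth. Fibroblast markers were 1.85-fold higher in CKO vSMCs (1.73 to 1.97), and their part in the difference was not tested. All features with at least 20 UMIs in vSMCs had a median log2 ratio of 0.11 (0.5 UMIs added). The contractile sum, at -0.17 with no UMIs added, stood at -0.28 relative to that median. The added 0.5 UMIs raise the ratios of sparse features where the CKO total is the smaller, so part of this gap can come from them. TMM scaling, which sets the bulk of features level, moved the log2 ratios by -0.07 in vSMCs, 0.02 in pericytes, -0.14 in ECs and -0.08 in nuclei labeled glia.

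*Acta2* encodes the actin that fills the thin filaments of vascular smooth muscle (chr19:34217737-34232990, minus strand, GRCm39, as all gene positions below). It was at 2831 CPM in control vSMCs (2747 to 2916) and 2624 CPM in CKO vSMCs (2431 to 2830). The intervals overlapped, and the ratio was 0.927 (0.854 to 1.01). A UMI of *Acta2* was found in 84.4% of control (80.7 to 87.6) and 77.7% of CKO vSMC nuclei (68.4 to 85.3). Thinned to 500 UMIs, which leaves out 49 control and 18 CKO nuclei below that depth, the shares were 60.5% and 59.4%. *Actg2*, the gamma smooth muscle actin best known from visceral muscle (chr6:83489887-83513551, minus strand), was at 53.7 CPM (42.7 to 66.5) and 77.4 CPM (47.3 to 120). Its CKO value rested on 20 UMIs, and the ratio of 1.44 had an interval of 0.838 to 2.37. The actin genes are near-identical in their coding sequence, so how any reads that fall there were divided between them is uncertain.

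Among the myosin genes, the heavy chain and the regulatory light chain were lower in CKO vSMCs. *Myh11*, the smooth muscle myosin heavy chain (chr16:14012399-14109236, minus strand), was at 793 CPM in control (749 to 838) and 631 CPM in CKO vSMCs (538 to 736). The CKO library was lower without overlap, with a ratio of 0.796 (0.672 to 0.938). *Myl9*, the regulatory light chain (chr2:156617084-156623579, plus strand), was at 1001 CPM (952 to 1052) and 728 CPM (627 to 839). It had the lowest ratio of the 10 genes in vSMCs, 0.727 (0.622 to 0.846), again without overlap. *Mylk*, the kinase of that light chain (chr16:34565580-34822790, plus strand), was at 700 CPM (658 to 743) and 677 CPM (581 to 786). Here the libraries overlapped, and the ratio was 0.968 (0.821 to 1.14).

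Of transgelin, calponin, leiomodin, desmin and synaptopodin 2, only transgelin had an interval of the ratio that left 1. *Tagln* encodes transgelin, or SM22-alpha, a calponin relative that binds actin filaments (chr9:45840909-45847404, minus strand). It was at 683 CPM in control (643 to 726) and 573 CPM in CKO vSMCs (484 to 673). Those intervals overlapped while the interval of the ratio, 0.838 (0.701 to 0.996), ended just under 1. *Cnn1*, calponin, which inhibits the myosin ATPase on actin (chr9:22010512-22020926, plus strand), was at 76.3 CPM (63.1 to 91.4) and 85.2 CPM (53.4 to 129). *Lmod1*, leiomodin, which nucleates actin filaments in smooth muscle (chr1:135252509-135295907, plus strand), was at 112 CPM (95.8 to 130) and 105 CPM (68.9 to 152). *Des*, desmin, the muscle intermediate filament (chr1:75320511-75345223, plus strand), was at 76.9 CPM (63.7 to 92.1) and 89.0 CPM (56.4 to 134). *Synpo2*, synaptopodin 2 or myopodin, which bundles actin (chr3:122870168-123029798, minus strand), was at 111 CPM (95.2 to 129) and 135 CPM (94.4 to 188). In each of these last 4 genes the libraries overlapped, and the CKO values rested on 22, 27, 23 and 35 UMIs. Of the 22 CKO UMIs of *Cnn1*, 11 were in 1 nucleus. When each nucleus had the same weight, the log2 ratio turned from 0.16 to -0.17 for *Cnn1*. It turned from 0.28 to -0.23 for *Synpo2* and from -0.10 to 0.04 for *Lmod1*.

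The share of vSMC nuclei with a UMI was lower in the CKO library for every contractile gene but *Actg2*, before any adjustment for the lower depth of the CKO nuclei. *Myh11* was found in 65.7% of control (61.1 to 70.1) and 52.4% of CKO vSMC nuclei (42.4 to 62.4), and in 34.8% and 28.7% after thinning to 500 UMIs. *Myl9* was found in 71.0% (66.6 to 75.2) and 56.3% (46.2 to 66.1), or 37.0% and 29.4% after thinning. For both myosin genes the CKO share was the lower of the pair with and without thinning. *Mylk* was found in 74.4% (70.1 to 78.4) and 66.0% (56.0 to 75.1) of vSMC nuclei, thinned 37.2% and 32.0%, and *Tagln* in 63.5% (58.8 to 67.9) and 60.2% (50.1 to 69.7), thinned 31.8% and 30.2%. The remaining genes were sparser, with *Lmod1* the most often found, in 24.1% and 20.4% of nuclei. After thinning, *Actg2* and *Des* had the higher share in the CKO library, 6.29% against 4.58% and 7.74% against 5.75%, and *Cnn1*, *Lmod1* and *Synpo2* the lower one. In Glut_0, *Mylk* was found in 2.60% of control and 0.741% of CKO nuclei and *Synpo2* in 1.33% and 0.322%.

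**Figure D1:**
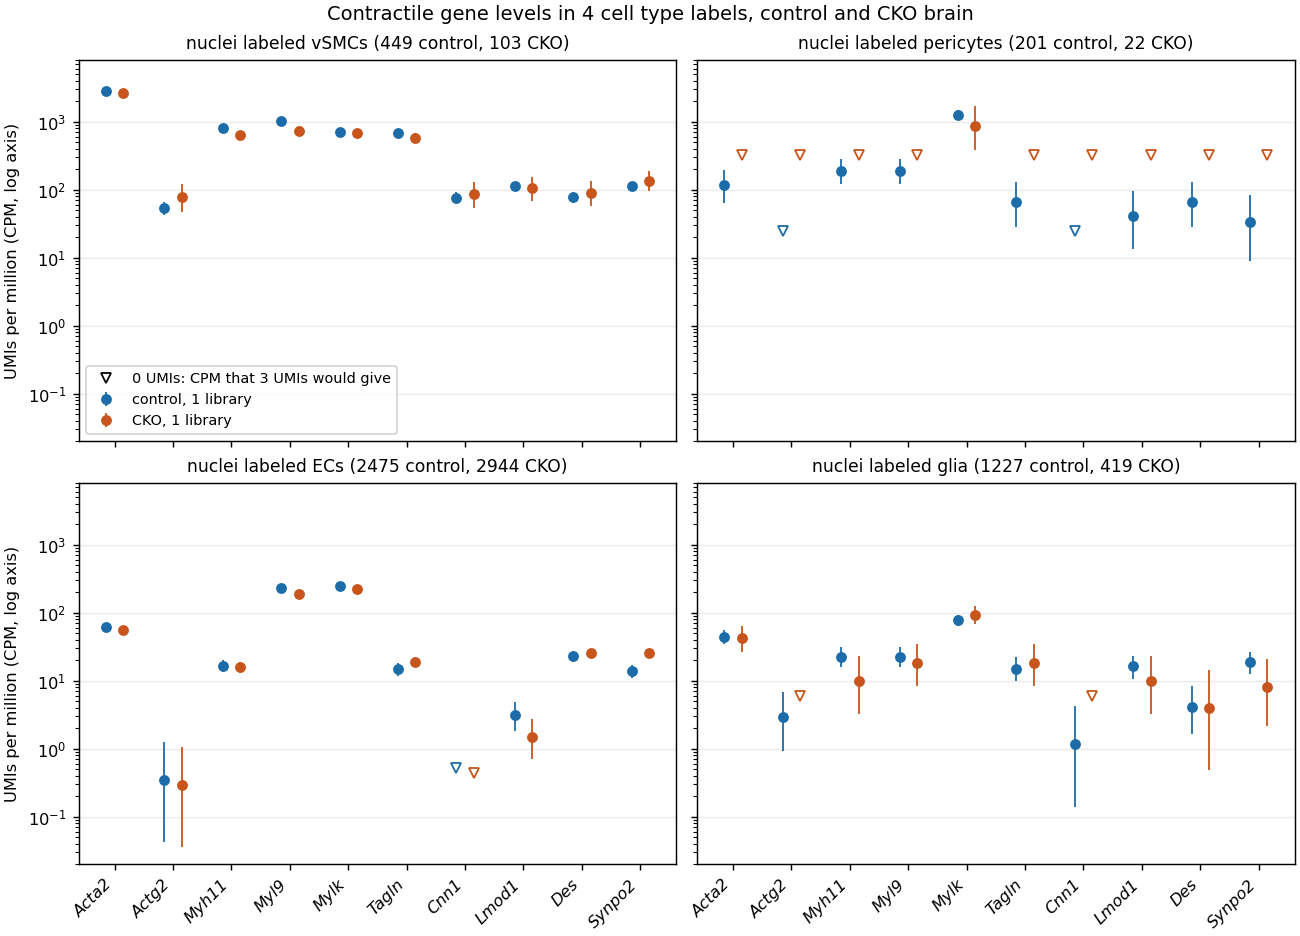
Level of each contractile gene in CPM (log axis) in nuclei labeled vSMCs, pericytes, ECs and glia of the control and the CKO library, with exact Poisson 95% intervals for counting error only and open triangles, for 0 UMIs, at the CPM that 3 UMIs would give. Levels in vSMCs reach 2831 CPM for *Acta2*, and 9 of the 10 genes have no UMI in the 22 CKO nuclei labeled pericytes.

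Across the 10 genes in vSMCs, all of which passed a minimum of 20 UMIs over both libraries, none had a ratio of at least 2 and none of at most 0.5. Among 10123 features that passed the same minimum, 4.70% had a ratio of at least 2 and 8.82% of at most 0.5. The interval of the ratio lay below 1 for 3 genes, *Myh11*, *Myl9* and *Tagln*, and above 1 for 0, against 6.36% and 8.55% of all features. The median log2 ratio over the 10 genes was -0.06. Leaving out nuclei with markers of other cell types moved the sum. Without nuclei that hold at least 2 UMIs of EC markers, 68 control and 18 CKO vSMC nuclei remained, in which the sum was 24190 and 14517 CPM, a log2 ratio of -0.74. Without nuclei that hold at least 2 UMIs of fibroblast markers, an alternative chosen after seeing the data, 97 and 25 nuclei remained with 10496 and 11721 CPM, and the log2 ratio was 0.16, of the opposite sign. Both filters use raw marker counts, which deeper nuclei reach more often, so marker content and depth cannot be told apart. The part of these other markers in the difference was not tested.

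**Figure D2:**
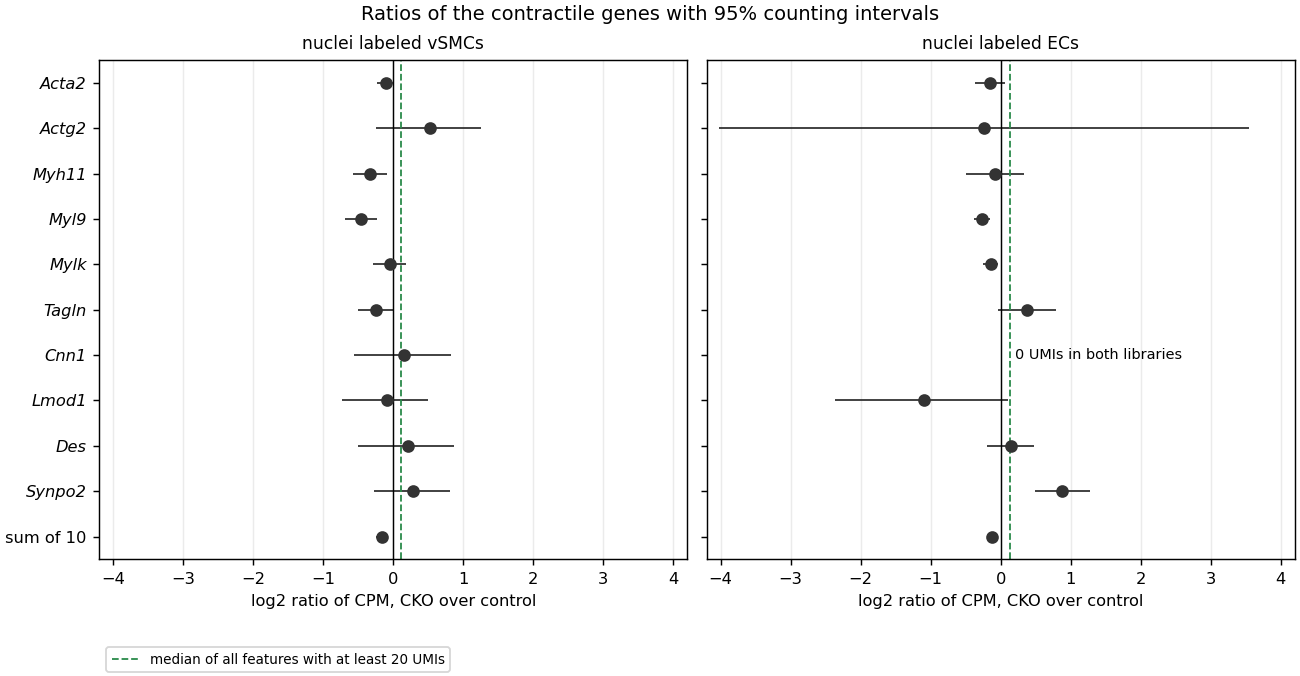
Log2 ratio of CPM, CKO over control, of each contractile gene and of the sum of 10 in nuclei labeled vSMCs and ECs, with exact conditional binomial 95% intervals for counting error only and a dashed line at the median of all features with at least 20 UMIs. In vSMCs *Myl9*, *Myh11* and *Tagln* lie below 0 with their intervals, and in ECs *Synpo2* lies above 0 at 0.88.

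In single vSMC nuclei the genes were found in combination. The median nucleus had UMIs of 5 of the 10 genes in control vSMCs and of 4 in CKO vSMCs. At least 3 of the genes were found in 81.5% of control and 67.0% of CKO vSMC nuclei, and none of them in 4.90% and 8.74%. The mean was 4.52 genes in control and 3.95 in CKO nuclei, and with depth set level by thinning to 500 UMIs it was 2.33 genes in 400 control nuclei and 2.08 in 85 CKO nuclei, still the lower of the pair. The UMIs were spread unevenly. The tenth of nuclei with most of them, 45 control and 11 CKO nuclei, held 48.5% and 39.7% of the contractile UMIs, and single nuclei reached 348 and 113. Over the nuclei of a library, the Pearson correlation of 2 genes (on log2 of the UMIs scaled to the depth of the nucleus, a description of nuclei that share a library and its depth) had a median over 45 pairs of 0.25 among control nuclei and 0.24 among CKO nuclei. *Acta2* with *Myh11* gave 0.63 and 0.61, and *Acta2* with *Tagln* gave 0.59 and 0.65. Of control vSMC nuclei with a *Myh11* UMI, 95.9% also had *Acta2*, against 62.3% of those without.

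**Figure D3:**
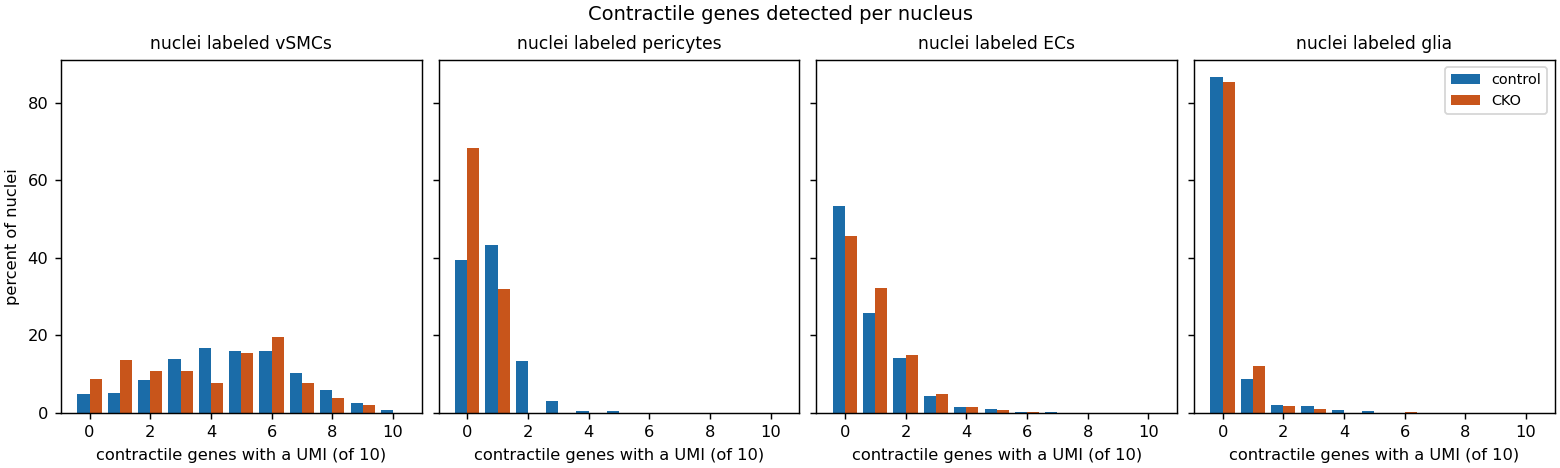
Percent of nuclei (vertical axis) by how many of the 10 contractile genes have a UMI (horizontal axis), in nuclei labeled vSMCs, pericytes, ECs and glia of the control and the CKO library, not thinned. Median counts in vSMCs are 5 and 4 genes, while 53.3% of control and 45.6% of CKO ECs have no UMI of the genes.

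In nuclei labeled pericytes, 1 gene stood for most of the signal. *Mylk* was at 1239 CPM in control pericytes (1050 to 1453), higher than in control vSMCs without overlap. The CKO value, 868 CPM, rested on 8 UMIs (375 to 1711) and overlapped with the control, at a ratio of 0.701 (0.297 to 1.42). *Mylk* made up 64.0% of the contractile UMIs in control pericytes against 10.9% in control vSMCs. *Myh11* and *Myl9* were both at 189 CPM in control pericytes (120 to 283), from 23 UMIs each, and *Acta2* was at 115 CPM (62.8 to 193), a level below that of vSMCs by 24.6-fold (14.7 to 45.1). *Tagln* and *Des* were at 65.7 CPM with 8 UMIs each, *Lmod1* at 41.0 CPM with 5 and *Synpo2* at 32.8 CPM with 4, while *Cnn1* and *Actg2* had 0. In the CKO library the other 9 genes had no UMI. With 9213 UMIs in all, 3 UMIs would be 326 CPM, which is above the control level of each of those 9 genes, so a lower CKO level was not detectable at this depth. A higher one was limited by the upper bound of the ratio, 2.30 for *Myh11* and *Myl9* and 3.99 for *Acta2*.

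The summed level in pericytes was 1937 CPM in the control (1698 to 2200) and 868 CPM in the CKO library, a ratio of 0.448 (0.191 to 0.898). A UMI of any of the genes was found in 60.7% (53.6 to 67.5) and 31.8% (13.9 to 54.9) of nuclei, and one of *Mylk* in 48.8% (41.7 to 55.9) and the same 31.8%. Thinned to 500 UMIs the shares ran the other way, 56.0% and 66.7% for any gene and 44.8% and 66.7% for *Mylk*, with only 4 CKO nuclei deep enough. Of 914 features with at least 20 UMIs in pericytes, 40.5% had a ratio of at most 0.5 and 13.7% of at least 2, and the median feature stood at -0.34 on the log2 scale. Of the contractile genes 3 passed that minimum. *Myh11* and *Myl9* passed on 23 control UMIs alone, and since a lower CKO level was not detectable for them, nothing is read from their count of 0. Pericyte markers were lower as well, at 28052 and 15087 CPM, and vSMC markers were at 1699 CPM with 7 of 10 detected in the control and at 109 CPM, from 1 UMI of *Casq2*, in the CKO library. Fibroblast markers were higher, at 944 and 1845 CPM, a ratio of 1.96 (1.10 to 3.27). So was the EC marker *Flt1*, at 3.71 (2.23 to 5.95) from 82 and 23 UMIs. For all EC markers the ratio was 1.43 (0.926 to 2.14), with *Flt1* holding 23 of the 27 CKO UMIs. Of the others, *Cldn5*, *Pecam1*, *Erg*, *Tek* and *Abcb1a* had 0 CKO UMIs, against 29, 15, 8, 10 and 21 in the control. *Emcn* was at 0.276 and *Kdr* at 0.551, while *Cdh5* was at 2.20 from 12 and 2 UMIs. The intervals of these others held 1. Of the CKO pericyte nuclei, 18 of 22 had under 500 UMIs. The part of markers and depth in this difference was not tested.

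In ECs, *Mylk* and *Myl9* held most of the contractile UMIs. *Mylk* was at 244 CPM in control ECs (231 to 257) and 221 CPM in CKO ECs (210 to 233), with UMIs in 32.1% (30.2 to 34.0) and 34.3% (32.6 to 36.0) of nuclei. *Myl9* was at 229 CPM (217 to 242) and 191 CPM (181 to 201), with UMIs in 28.6% (26.8 to 30.4) and 29.2% (27.5 to 30.9) of nuclei. For *Myl9* the CKO level was lower without overlap, at a ratio of 0.832 (0.770 to 0.899), and for *Mylk* the levels overlapped while the interval of the ratio left 1, at a ratio of 0.907 (0.843 to 0.976). When each nucleus had the same weight instead of each UMI, the log2 ratio turned from -0.27 to 0.11 for *Myl9* and from -0.14 to 0.14 for *Mylk*. Thinned to 500 UMIs, the shares were 10.8% and 11.5% for *Mylk* and 9.36% and 9.74% for *Myl9*, while thinned Glut_0 nuclei had *Mylk* in 0.128% and 0.0639% and *Myl9* in none. *Cnn1* had 0 UMIs in the EC nuclei of both libraries, and *Actg2* had 2 in each library. In control ECs 3 UMIs would be 0.517 CPM, against 76.3 CPM of *Cnn1* in control vSMCs.

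*Acta2* was at 62.4 CPM in control ECs (56.1 to 69.2) and 56.0 CPM in CKO ECs (50.6 to 61.9). The levels overlapped, with a ratio of 0.898 (0.776 to 1.04). Nuclei with an *Acta2* UMI were 4.85% of control (4.04 to 5.77) and 6.90% of CKO ECs (6.01 to 7.87), but after thinning to 500 UMIs the shares were 2.15% and 2.22%. Since the raw shares run against the CPM, no order is read from them. *Acta2* UMIs were less concentrated in the CKO library. There, 188 nuclei with 1 to 4 UMIs held 73.2% of them and 15 nuclei with at least 5 held 26.8%, against 99 nuclei with 46.4% and 21 nuclei with 53.6% in the control. In the control, ECs with at least 5 *Acta2* UMIs had *Myh11* at 202 CPM and *Tagln* at 190 CPM, against 6.10 and 5.53 CPM in ECs without *Acta2*, while EC markers were at 5670 CPM against 12650 CPM. In the CKO library the same nuclei had *Myh11* at 177 CPM and EC markers at 6858 CPM, against 7.10 and 10787 CPM. These nuclei were also deeper, with medians of 6197 (control) and 7892 UMIs (CKO) against 1294 and 1395, and higher in pericyte markers, at 11339 and 9630 CPM against 8249 and 7042 CPM. The part of depth was not tested.

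Over all ECs, *Synpo2* was the only contractile gene with a higher level in the CKO library whose interval left 1. It was at 13.8 CPM in control (10.9 to 17.2) and 25.4 CPM in CKO ECs (21.8 to 29.5), a ratio of 1.84 (1.41 to 2.43). The nuclei with a UMI were 71 or 2.87% of control and 164 or 5.57% of CKO ECs, and the intervals of these shares did not overlap. The shares were 0.544% and 0.922% after thinning, and single nuclei held at most 3 and 2 UMIs. Since *Synpo2* overlaps other gene models on its own strand, how its UMIs were assigned is uncertain. *Tagln* was at 14.7 CPM (11.7 to 18.1) and 19.0 CPM (15.9 to 22.5), *Des* at 22.8 CPM (19.0 to 27.0) and 25.1 CPM (21.5 to 29.1), and *Myh11* at 16.5 CPM (13.4 to 20.2) and 15.6 CPM (12.8 to 18.9). These 3 overlapped between the libraries, as did *Lmod1* with 18 and 10 UMIs. When each nucleus had the same weight, the log2 ratio of *Myh11* turned from -0.08 to 0.41, outside its counting interval. Of the 10 genes, 8 passed the minimum of 20 UMIs in ECs. *Lmod1* alone had a ratio of at most 0.5 and none had a ratio of at least 2, against 5.79% and 11.2% of 13154 features. The interval lay above 1 for *Synpo2* and below 1 for *Myl9* and *Mylk*, against 36.0% and 19.0% of those features.

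The sum in ECs was 607 CPM in the control (587 to 627) and 555 CPM in the CKO library (537 to 573), a ratio of 0.915 (0.873 to 0.958). The log2 ratio was -0.13, or -0.26 relative to the median feature, but it was 0.13 when each nucleus had the same weight instead of each UMI. The make-up of the sum in ECs was not that of vSMCs. *Acta2* was 44.0% of the contractile UMIs in control vSMCs and 10.3% in control ECs, and *Mylk* was 10.9% (10.3 to 11.5) and 40.2% (38.6 to 41.8). The CKO library had 45.8% and 10.1% for *Acta2* and 11.8% and 39.9% for *Mylk*. *Myl9* was 37.8% of the sum in control ECs and 15.5% in control vSMCs.

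The EC values varied with pericyte markers. Control ECs with no pericyte marker UMI, 361 nuclei with a median of 503 UMIs, had *Myl9* at 4.50 CPM from 1 UMI (0.114 to 25.1) and *Mylk* at 36.0 CPM (15.5 to 71.0). Those with over 5 pericyte marker UMIs, 1678 nuclei with a median of 2209 UMIs, had *Myl9* at 252 CPM (238 to 266) and *Mylk* at 264 CPM (250 to 278). In the CKO library the corresponding 131 nuclei had 13.3 CPM of *Myl9* (0.336 to 74.0) and 66.4 CPM of *Mylk* (21.6 to 155), and the 2215 nuclei 200 CPM (189 to 211) and 226 CPM (214 to 238). The sum without any pericyte marker UMI was 54.0 CPM in control (27.9 to 94.3) and 120 CPM in CKO ECs (54.7 to 227), from 12 and 9 UMIs, a ratio of 2.21 with an interval of 0.824 to 5.73 that held 1. The nuclei without pericyte markers were 14.6% of control and 4.45% of CKO ECs. The libraries were ordered differently by marker content. With 1 to 5 pericyte marker UMIs, 436 control and 598 CKO nuclei had the sum at 214 CPM (169 to 266) and 364 CPM (314 to 419), a ratio of 1.70 (1.30 to 2.24). With over 5 it was at 658 CPM (636 to 681) and 576 CPM (558 to 595), a ratio of 0.876 (0.835 to 0.918). Nuclei with 1 to 5 had medians of 638 (control) and 626.5 UMIs (CKO), against 2209 and 2086 for those with over 5. Marker content and depth thus cannot be told apart by this split, and the part of pericyte RNA in the EC values was not tested. For *Myl9* the ratio was 2.38 (1.36 to 4.35) with 1 to 5 and 0.793 (0.734 to 0.858) with over 5, and for *Mylk* 2.03 (1.36 to 3.09) and 0.858 (0.796 to 0.925). Among ECs with over 5 pericyte marker UMIs, *Synpo2* had a ratio of 1.76 (1.34 to 2.33) and *Tagln* of 1.38 (1.03 to 1.86). *Tagln* was at 0.387 (0.102 to 1.29) with 1 to 5, and over all ECs its log2 ratio went from 0.37 to -0.0295 when each nucleus had the same weight.

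Nuclei labeled glia held little of the genes. Their sum was 224 CPM in the control (202 to 247) and 202 CPM in the CKO library (165 to 246), which overlapped, with a ratio of 0.904 (0.719 to 1.13). No UMI of the 10 genes was found in 86.6% of control and 85.2% of CKO nuclei with this label, while thinned to 500 UMIs the share with a UMI was 5.35% and 8.70%, higher in the CKO library, and that of *Mylk* 2.45% and 5.09%. The tenth of nuclei with most contractile UMIs held 89.4% and 80.2% of them. *Mylk* led at 76.8 CPM (64.3 to 91.0) and 92.1 CPM (67.5 to 123), followed by *Acta2* at 44.4 CPM (35.1 to 55.5) and 42.1 CPM (26.0 to 64.3) in the order of UMIs, which is not an order of expression per length. *Acta2* was below its vSMC level by 63.7-fold in the control (50.9 to 80.9) and 62.4-fold in the CKO library (40.5 to 101). Of the 10 genes 7 passed the minimum of 20 UMIs. *Myh11*, with 39 and 5 UMIs, and *Synpo2*, with 32 and 4, had ratios of at most 0.5 with intervals that held 1, and none reached 2, against 11.1% and 10.2% of 9816 features.

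Ordered over all 21 labels, vSMCs came first for 8 of the 10 genes in both libraries by the levels counted. The CKO nuclei labeled pericytes had UMIs of *Mylk* alone, with an upper limit of 400 CPM for each other gene. Their place in the CKO order of those genes is therefore not known. That limit lies above the CKO vSMC level of *Cnn1*, *Lmod1*, *Actg2* and *Des*. CKO microglia and GABA_22, with 14637 and 44688 UMIs in all, had no UMI of the 10 genes. At that depth their place in the CKO order is not known either for genes at low levels. For *Acta2*, vSMCs were followed in the control by pericytes, ECs, glia and the cluster CP_6 at 35.1 CPM (29.0 to 42.2), where pericytes overlapped with ECs and glia with CP_6. For *Myh11* and *Tagln* the order in the control was vSMCs, pericytes, glia and ECs, with the last pair overlapping. The CKO order of the labels with UMIs of the gene was another. Glut_20 came second for *Tagln* from 8 UMIs, ahead of ECs at 19.0 CPM and glia at 18.0 CPM, and OPCs second for *Myh11* at 23.9 CPM (7.77 to 55.9), from 5 UMIs in 1 nucleus, ahead of ECs at 15.6 CPM. All of these overlapped with the next. For *Acta2* the CKO order was vSMCs, ECs, glia and Glut_20, the last 3 overlapping. For *Myl9* ECs came next to vSMCs, overlapping with pericytes in the control. *Des* in control vSMCs overlapped with pericytes, and both exceeded ECs. *Mylk* was led by pericytes, with vSMCs overlapping in the CKO library only, then ECs and glia without overlap. *Synpo2*, like *Mylk*, was not led by vSMCs. It was highest in the cluster Glut_19, at 704 CPM in control (661 to 749) and 677 CPM in CKO nuclei (627 to 730), followed by CP_6 at 224 CPM (208 to 240) and 191 CPM (168 to 216). Astrocytes, at 149 CPM (129 to 171) and 117 CPM (88.8 to 151), came before vSMCs in the control and after them in the CKO library. In the CKO library vSMCs overlapped with both CP_6 and astrocytes for this gene. vSMCs held 87.4% of all *Acta2* UMIs of the control library and 59.5% of those of the CKO library, where vSMCs were 0.702% of nuclei against 2.70%. ECs held 7.23% and 33.7% of them.

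Other genes of contraction were lower in CKO vSMCs where their intervals left 1. Of 36 further contractile genes, such as tropomyosins, phosphatase subunits and adhesion proteins, all passed 20 UMIs in vSMCs, with 11 intervals below 1 and 0 above, against 6.36% and 8.55% of all features, and a median log2 ratio of -0.15 against 0.11. The lowest were *Casq2*, the calcium store protein calsequestrin, at 49.1 and 19.4 CPM (ratio 0.394, 0.124 to 0.960), *Pln*, phospholamban, at 73.7 and 34.8 CPM (0.473, 0.211 to 0.929), and *Synm*, the intermediate filament protein synemin, at 118 and 58.1 CPM (0.493, 0.271 to 0.836). Among the highest were *Ldb3* at 43.3 and 54.2 CPM and *Ppp1r12c* at 97.6 and 112 CPM, whose intervals held 1. In ECs 33 of the 36 passed, with 11 intervals above and 13 below 1, against 36.0% and 19.0% of all features, and a median of 0.01 against 0.13. The count above 1 was thus near the share over all features. *Synm*, among the lowest in vSMCs, was the lowest in ECs, at 308 and 115 CPM (0.373, 0.343 to 0.406). It was followed by *Itga8* at 0.487 (0.353 to 0.667) and *Ppp1r12b* at 0.674 (0.550 to 0.826). *Dmpk*, a kinase that acts on the myosin phosphatase, was highest at 3.10 and 12.4 CPM (4.00, 2.38 to 7.07), followed by *Pgm5* at 71.0 and 143 CPM (2.01, 1.79 to 2.27) and *Nexn* at 1.95 (1.13 to 3.48).

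The list of 15 regulators holds the serum response factor SRF, its cofactors, Notch pathway genes and other transcription factors of mural cells. In vSMCs *Srf* itself had under 20 UMIs, and the other 14 passed with 0 intervals above and 0 below 1, against 8.55% and 6.36% of all features. Their median was 0.00, and the highest ratios were those of *Mrtfa* at 55.6 and 85.2 CPM (1.53, 0.913 to 2.47), *Tbx18* at 116 and 139 CPM and *Hey1* at 72.4 and 81.3 CPM. The lowest were those of *Rbpj* at 0.911, *Foxs1* at 0.641 and *Gata6* at 0.438 (0.0868 to 1.37). In ECs all 15 passed, with 3 intervals above and 3 below 1, against 36.0% and 19.0% of all features, so the count below was near that share and the count above under it. *Mrtfb*, a cofactor of SRF, was at 433 and 603 CPM (1.39, 1.32 to 1.46) and *Srf* at 12.4 and 17.7 CPM (1.42, 1.05 to 1.93), while *Gata6* at 1.69 rested on 8 and 16 UMIs. *Klf4*, which opposes the contractile program in smooth muscle, was at 255 and 118 CPM (0.463, 0.425 to 0.505), *Myocd*, the smooth muscle cofactor of SRF, at 2.93 and 2.34 CPM (0.797, 0.377 to 1.68) and *Tead1* at 0.802 (0.740 to 0.869). The other intervals away from 1, named after their values were seen, were those of *Mef2c* at 1.27 and of *Mrtfa*, another cofactor of SRF, at 56.4 and 47.9 CPM (0.849, 0.726 to 0.993).

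Of 22 non-muscle and striated muscle relatives of the genes, 14 passed in vSMCs, with 2 intervals above and 1 below 1, against 8.55% and 6.36% of all features, and a median of 0.09 against 0.11. *Myh10*, a non-muscle myosin heavy chain, was at 164 and 290 CPM (1.77, 1.35 to 2.30) and *Actg1*, a cytoplasmic actin, at 654 and 890 CPM (1.36, 1.18 to 1.57), with *Tagln3* at 1.66 from 18 and 5 UMIs. *Myl12b*, a non-muscle relative of *Myl9*, was lowest at 358 and 248 CPM (0.692, 0.525 to 0.897), with *Synpo* at 0.880 and *Tmod2* at 0.887. In ECs 16 passed, with 6 intervals above and 8 below 1, against 36.0% and 19.0% of all features, and a median of -0.13 against 0.13. The count above 1 was near the share over all features. *Vim*, the intermediate filament vimentin, was at 465 and 776 CPM (1.67, 1.59 to 1.75), *Tagln3* at 2.34 (1.21 to 4.82) and *Myh10* at 1.25 (1.19 to 1.32), against *Myl12b* at 515 and 286 CPM (0.555, 0.524 to 0.588), *Tmod2* at 0.591 and *Tmod1* at 0.398.

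The gene whose profile over 20 labels in both libraries, 40 points in all, came closest to the contractile sum was *Filip1l*, with a Pearson correlation of 0.87 on log2(CPM + 1) among 14448 genes with at least 200 UMIs. *Amotl1* (0.86), *Atp10a* (0.85), *Extl3* (0.84) and *Ak3* (0.82) followed. The points share libraries and depth, so these are descriptions. Of the contractile genes themselves with enough UMIs, *Mylk* was at 0.85, *Acta2* at 0.76 and *Lmod1*, the lowest, at 0.68. *Filip1l* was at 625 and 554 CPM in vSMCs, 788 and 1085 CPM in pericytes and 144 and 137 CPM in ECs, so unlike the contractile sum it was highest in pericytes among these.

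The promoters of the genes were searched for the CArG box, the motif that SRF binds in smooth muscle genes, which is CC, a run of A or T and GG and reads as the same class on both strands. RefSeq promoter windows on GRCm38.p6 were at hand for 7 of the 10 genes and *Myh11*, *Tagln* and *Actg2* are named only. In the 250 bases before the gene start, a full box is in 1.47% of 32851 windows of all genes, and a box with at most 1 base of the run replaced by G or C in 8.59%. Among the 7 genes *Myl9* holds a full box, and *Myl9* and *Acta2* hold boxes when 1 replaced base is allowed. *Mylk*, with 1082 UMIs in control vSMCs, holds none, nor do *Cnn1*, *Lmod1*, *Des* and *Synpo2*. The stretches that hold these boxes are shown because they are the sequence feature shared by the actin and the light chain, which are among the genes with the most UMIs in vSMCs. They lie at chr19:34255388-34255467, minus strand, with boxes that begin 84 and 34 bases before the *Acta2* start, and at chr2:156775293-156775384, plus strand, with boxes that begin 161 and 99 bases before the *Myl9* start. Capitals mark the boxes.
Acta2: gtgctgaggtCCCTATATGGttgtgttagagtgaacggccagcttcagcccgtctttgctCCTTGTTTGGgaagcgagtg
Myl9: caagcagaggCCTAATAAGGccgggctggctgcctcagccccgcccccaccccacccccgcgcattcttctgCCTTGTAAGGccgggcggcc
A match is a description of the letters and not a measured binding site, and a link between boxes and levels was not tested.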

How the data were processed

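Brain vascular fragments were enriched on Ficoll and profiled by PIPseq snRNAseq, with 1 library per genotype. The deposited counts are whole UMIs for every gene in every nucleus. To make them, the authors aligned and counted reads with PIPseeker, took out empty droplets and background with CellBender and doublets with SOLO, and removed mixed nuclei by hand. The study's methods name a GRCm39 index, and the submitters' processing notes name mm10 and Seurat. Strandedness of counting is unstated. Cell type labels are the authors'. The retina libraries were not analysed. Counts were summed per label and library with Python 3.11.15, numpy 2.4.6, pandas 2.3.3 and scipy 1.17.1 and drawn with matplotlib 3.10.9; TMM factors came from edgeR 4.0.16 in R 4.3.3. Interval functions were tested on simulated data. Intervals are 95% exact intervals; a count of 0 has a floor of 3 UMIs; medians of log2 ratios add 0.5 UMIs; features need 20 UMIs over both libraries of a label. Thinned shares are the expected share of nuclei with a UMI after drawing 500 UMIs from each nucleus with at least 500. Members, lists and markers were chosen with earlier results of these data known. All 10 members are named, and of each other list genes from the 3 highest and 3 lowest ratios in vSMCs and in ECs, and of the likeness ranking the first 5 non-members with at least 200 UMIs, over labels with at least 20 nuclei in both libraries. Alternatives were equal weight per nucleus, nuclei with at least 1000 UMIs, TMM, totals without the members, the median gene, leaving out the nucleus with most UMIs or nuclei with other markers, and other minimum counts. *Irag1* and *Mrvi1* are names of the same gene, listed under both.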

Additional observations from a re-analysis of the deposited data

Results flagged for a closer look

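Among ratios that rest on at least 20 UMIs over both libraries, CKO over control had intervals on opposite sides of 1 in different cell types for *Synpo2* and for the sum of the 10 genes. No difference between cell types was tested, and with 1 library per genotype none can be. *Synpo2* had a ratio of 1.84 in ECs (1.41 to 2.43, from 80 control and 174 CKO UMIs), whereas it was 0.854 in the cluster CP_6 (0.739 to 0.985, 738 and 261 UMIs) and 0.430 in GABA_9 (0.193 to 0.869, 43 and 10 UMIs).

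For the sum of the 10 genes, the ratio was above 1 in oligodendrocytes, 16.3 (4.93 to 84.9) from 3 control and 23 CKO UMIs, and in Glut_20, 3.91 (2.25 to 6.86) from 25 and 33 UMIs. In CKO oligodendrocytes 13 of the 23 UMIs were in 1 nucleus of 640, and UMIs of 1 nucleus are not independent, which the interval does not cover. It was below 1 in ECs at 0.915, in vSMCs at 0.889 and in CP_6 at 0.791 (0.694 to 0.900). It was also below 1 in astrocytes at 0.664 (0.498 to 0.873), in Glut_0 at 0.528 (0.347 to 0.786, 93 and 35 UMIs) and in pericytes at 0.448, where 8 CKO UMIs were counted. Below the minimum of 20 UMIs, intervals above 1 were also found for the sum in OPCs (29.9, 4.43 to 1279, from 1 and 12 UMIs, of which 11 were in 1 CKO nucleus), for *Acta2* in Glut_20, OPCs and oligodendrocytes, for *Tagln* in CP_6 and Glut_20, for *Myh11* in OPCs, for *Lmod1* in oligodendrocytes and for *Synpo2* in Glut_20. *Acta2* in CP_6, and *Myh11* and *Tagln* in vSMCs, had intervals below 1. The *Acta2* UMIs of CKO OPCs were all in 1 nucleus, as were those of *Myh11*, and 10 of 11 *Acta2* UMIs of CKO oligodendrocytes were in 1 nucleus.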

How the results depend on the processing

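Values below are log2 ratios, CKO over control. The contractile sum stayed within the counting interval of its reported value in 20 of 29 alternatives over 4 cell types, moved outside it in 9 and had the other sign in 4. In vSMCs, -0.17 moved to -0.29 with nuclei of at least 1000 UMIs, -0.74 without nuclei with EC markers and -0.0594 for the median gene. It was 0.16 without nuclei with fibroblast markers, an alternative chosen after seeing the data. In ECs, -0.13 moved to 0.13 with equal weight per nucleus, -0.20 with at least 1000 UMIs, -0.27 with TMM scaling and 1.15 without nuclei with pericyte markers. The last rests on 12 and 9 UMIs, and its own interval, -0.28 to 2.52, holds the reported value. In nuclei labeled glia, -0.15 moved to -0.59 with equal weight, and the remaining sign change was to 0.00 without nuclei with other vascular markers. The causes were not tested. Pericytes with at least 1000 UMIs gave no value, since no CKO UMI of the genes was left.

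Single genes stayed within that interval in 102 of 111 alternatives, and shares of nuclei in 104 of 160, with 49 of the 56 moves under thinning, which lowers depth by construction. 12 single-gene values changed sign, 11 of them with equal weight per nucleus.

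Counts of features past a ratio of 2 or 0.5 follow the minimum count, which sets how many are tested. With at least 50 and at least 10 UMIs they were 153 and 880 (at least 2) and 398 and 1458 (at most 0.5) in vSMCs, 30 and 312, and 153 and 673, in pericytes, and 394 and 1556, and 557 and 1707, in nuclei labeled glia. In ECs the count at most 0.5 was 443 with at least 50 UMIs. No paired analysis was possible because each genotype has 1 library and nothing links a control to a CKO animal. Depth limits pericytes most, with 9213 CKO UMIs in all.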

Other observations

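Over the whole library, without regard to label, the 10 genes were at 342 CPM in the control and 219 CPM in the CKO library, a ratio of 0.642 (0.624 to 0.660). *Acta2* was at 101 and 36.7 CPM, a ratio of 0.365 (0.342 to 0.390), *Myl9* at 59.3 and 48.6 CPM, a ratio of 0.820 (0.770 to 0.873), and *Des* at 5.48 and 6.41 CPM, a ratio of 1.17 (0.969 to 1.41). These totals mix the level within a cell type with the number of its nuclei. *Tgfbr1* in vSMCs was at 65.9 CPM in the control (53.8 to 80.1) and 34.8 CPM in the CKO library (15.9 to 66.1), from 102 and 9 UMIs, with overlapping intervals. In pericytes it was at 32.8 and 326 CPM from 4 and 3 UMIs, a ratio of 9.92 (1.45 to 58.6), and in nuclei labeled glia at 280 and 268 CPM, a ratio of 0.957 (0.784 to 1.16). *Acta2* in the cluster CP_6 was at 35.1 CPM in the control (29.0 to 42.2) and 17.6 CPM in the CKO library (11.3 to 26.1), from 116 and 24 UMIs, and the interval of the ratio was 0.308 to 0.780. In Glut_20 it was at 7.59 and 39.3 CPM, from 4 and 7 UMIs.

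On GRCm39, *Acta2* overlaps *Stambpl1*, *Tagln* overlaps *Pcsk7* and *Cnn1* overlaps *Elof1* on the other strand. *Myl9*, *Mylk*, *Lmod1* and *Des* also overlap gene models on the other strand, and *Synpo2* overlaps gene models on both strands. Since the strandedness of counting is unstated, how UMIs of all these genes were assigned is uncertain.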
